A study of Homo sapiens with 12 samples.

Results

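The genes described here are 54 genes of the chaperone network and the heat shock response, out of 28395 genes in the deposited count table, followed through 4 stable lines of HCT116, a human colorectal cancer cell line. They were picked by symbol, and the 54 comprise 16 chaperones and partners whose genes are induced by heat or proteotoxic stress, 34 mostly constitutive chaperones and co-chaperones, 3 heat shock factors, and HSPB11, a small protein of the primary cilium that carries a heat shock protein name. The symbols were listed with earlier results of these data known, so every level and every call below is a description of these libraries and not an independent test of the list. A few members work outside the cytosol: HSPA9, HSPD1, HSPE1 and DNAJA3 act in mitochondria, and HSPA13 and SERPINH1 along the secretory pathway.

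Poly(A) RNA from each line was sequenced in 3 libraries to ask how the transcription factors EHF, of the ETS family, and CDX1, an intestinal homeobox factor, change gene expression. HCT116-EV cells carried the empty pcDNA plasmid and HCT116-EHF cells the pcDNA3.1-EHF plasmid, and both came from isolated clones resistant to geneticin (G418). HCT116-CDX1 cells were transduced with the MSCV-IRES-GFP-CDX1 retrovirus, sorted for GFP and expanded, with no G418 step and no isolation of clones stated. HCT116-EHF+CDX1 cells were HCT116-CDX1 cells that then received the EHF plasmid and grew out as G418-resistant clones. All 4 lines were kept in DMEM-F12 with 10% FCS, and the labels give no time point and no stress treatment. The labels do not say whether replicate libraries came from separate cultures, and the study speaks of biological replicates in one display of these data without saying which libraries, so part or all of the spread between them may be technical. As stated, CDX1 cells differ from the other 3 lines in G418 selection and in isolation of clones as well as in transcription factors. For a difference between CDX1 cells and the rest these cannot be told apart.

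The libraries held 13523007 to 74186741 counts. Levels below are CPM, counts per 1000000 of a library total that was scaled by TMM, edgeR's correction for composition, whose factors were 0.799 to 0.845 in CDX1 and 0.973 to 1.09 in the other libraries. EHF was at 299 CPM in EV, 19312 in EHF, 12.3 in CDX1 and 18708 in EHF+CDX1 cells. CDX1 was at 0.0061, 0.017, 525 and 5419 CPM in the same order, so the EHF+CDX1 line carried far more CDX1 transcript than the line it was made from. Of 6 markers of a colorectal epithelial line, EPCAM, KRT8, KRT18 and CDH1 were above 100 CPM on average in every line, and their sum with CDX2 and LGALS4 was 2021 to 2404 CPM in CDX1 libraries and 3155 to 4028 in the others. KRT8 and KRT18 were lowest in CDX1 cells, at 1012 and 565 CPM against 2181 and 1022 in EV. EPCAM was highest there, at 491 against 265 in EV. CDX2 averaged 29.9, 31.1, 39.9 and 57.9 CPM in EV, EHF, CDX1 and EHF+CDX1 cells. LGALS4 was low outside EHF+CDX1 cells, at 0.20, 0.15, 0.98 and 35.5 CPM in the same order.

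Heat shock proteins keep other proteins folded. HSP70 proteins bind unfolded stretches with the help of J-domain proteins (the DNAJ genes) and release them with nucleotide exchange factors such as the BAG and HSP110 proteins, HSP90 and its co-chaperones finish the folding of kinases and receptors, small heat shock proteins hold unfolded proteins in reserve, and chaperonins fold actin, tubulin and mitochondrial proteins inside a closed ring. When unfolded protein accumulates, the transcription factor HSF1 is released from chaperones, forms trimers and binds heat shock elements, which are inverted repeats of the unit GAA and its complement TTC in the promoters of the inducible genes. Colorectal and other cancer cells often hold a high basal level of this network.

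The promoter stretches of 9 members are given first because they show the element through which HSF1 acts on inducible genes. Each is 80 bases of RefSeq sequence (GRCh38.p14), printed 5′ to 3′ on the strand of the gene, and capitals mark adjoining GAA and TTC units.
HSPA6 (chr1:161524432-161524511, plus strand): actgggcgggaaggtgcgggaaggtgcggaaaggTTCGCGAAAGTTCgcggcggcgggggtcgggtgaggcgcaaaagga
HSP90AA1 (chr14:102087087-102087166, minus strand): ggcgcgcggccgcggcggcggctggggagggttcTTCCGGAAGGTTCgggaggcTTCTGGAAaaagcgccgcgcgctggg
DNAJB6 (chr7:157336839-157336918, plus strand): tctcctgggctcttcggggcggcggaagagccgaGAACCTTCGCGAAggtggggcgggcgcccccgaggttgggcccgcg
HSP90AB1 (chr6:44247744-44247823, plus strand): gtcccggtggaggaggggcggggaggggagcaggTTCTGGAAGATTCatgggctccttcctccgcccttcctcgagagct
HSPA1A (chr6:31815401-31815480, plus strand): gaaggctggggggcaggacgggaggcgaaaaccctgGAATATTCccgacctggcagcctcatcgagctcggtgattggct
HSPA1B (chr6:31827597-31827676, plus strand): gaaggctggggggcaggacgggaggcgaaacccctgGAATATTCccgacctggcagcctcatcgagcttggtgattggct
DNAJB1 (chr19:14518431-14518510, minus strand): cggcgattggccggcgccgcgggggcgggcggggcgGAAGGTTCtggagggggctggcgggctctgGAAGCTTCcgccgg
HSPB8 (chr12:119178807-119178886, plus strand): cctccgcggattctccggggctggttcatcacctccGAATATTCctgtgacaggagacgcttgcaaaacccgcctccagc
HSPB1 (chr7:76302455-76302534, plus strand): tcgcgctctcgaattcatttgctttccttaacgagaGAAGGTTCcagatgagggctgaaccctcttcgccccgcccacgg
The first 4 hold 3 units in a row and the other 5 hold pairs. All 9 stretches lie before the start site used for the window and overlap no exon in GENCODE v44. Those of HSPA1A, HSPA1B and HSPB1 lie between annotated genes. Those of DNAJB1, HSP90AA1, HSP90AB1, HSPB8 and DNAJB6 lie in introns of longer annotated transcripts of the same gene. That of DNAJB1 also lies in an intron of TECR, and that of HSPA6 in an intron of another annotated gene. HSPA1A and HSPA1B, neighbouring copies in the major histocompatibility region, have the same base at 78 of 80 positions here.

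The inducible genes stood far higher in CDX1 cells than in any other line. In CDX1 against EV, 16 of 16 inducible genes were higher in the test against a 1.5-fold change (edgeR quasi-likelihood fit over all 12 libraries, adjusted p under 0.05), with a median log2 fold change of 3.83 and a range of 2.55 to 10.68. The count includes CRYAB, which reached the 0.5 CPM needed for testing only in the CDX1 libraries, so its call was built in. The other 15 reached that level without the CDX1 libraries. Of the 34 constitutive genes 18 were higher and 1 was lower, with a median of 1.12. Over the 54 members 35 were higher and 2 were lower, where 21.3% of the 15853 genes tested were higher, 23.3% were lower and the median was -0.03. The list was drawn with such results known, so nothing is read from the distance to that background.

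**Figure D1:**
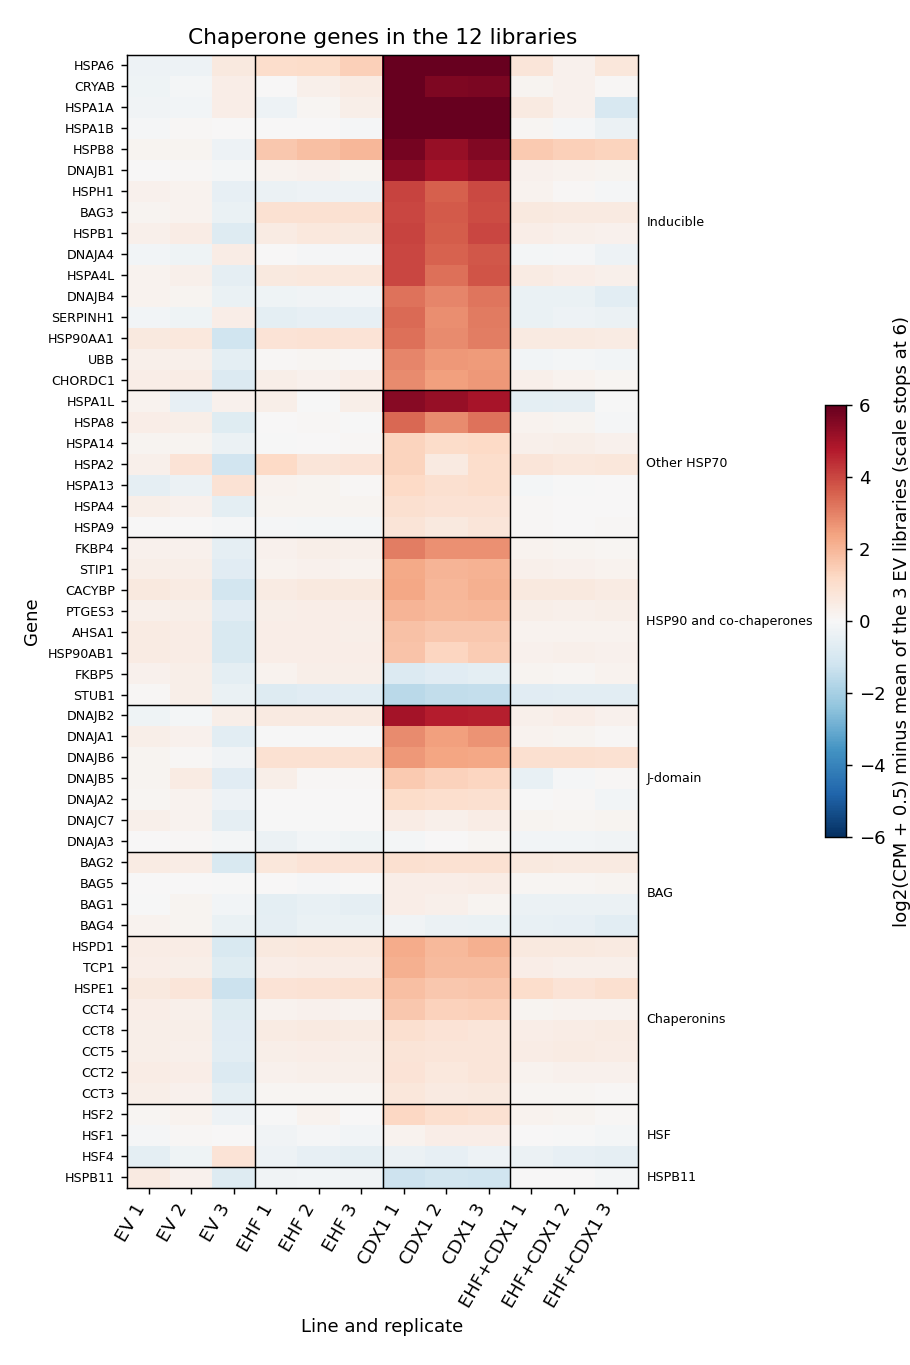
Level of each of the 54 genes (rows, by group) in each of the 12 libraries (columns), as log2(CPM + 0.5) minus the mean of the 3 EV libraries, with a colour scale that stops at 6. The 3 CDX1 columns are red for all 16 inducible genes, and EV replicate 3 is bluer than the other EV columns in most constitutive rows.

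HSPA1B, the major stress-inducible HSP70 (chr6:31827738-31830254), was at 139.8, 156.6 and 149.0 CPM in the EV libraries and at 148.5, 148.9 and 142.9 in the EHF libraries. In the CDX1 libraries it was at 14957, 10372 and 11980 CPM, and in the EHF+CDX1 libraries at 160.2, 143.0 and 115.7. The 9 libraries other than CDX1 lay within a narrow band and every CDX1 library was far above it, with a log2 fold change of 6.39 ± 0.19 (SE) over EV. HSPA1A, its copy upstream (chr6:31815543-31817942), was at 5.94 to 9.24 CPM in EV, 5.48 to 9.12 in EHF, 1070 to 1316 in CDX1 and 3.32 to 10.3 in EHF+CDX1 libraries, a log2 fold change of 7.34 ± 0.39 in CDX1. Of 150-base windows of the HSPA1A transcript, 69.6% occur unchanged in HSPA1B, and the authors kept only uniquely mapped reads, so how the reads divide between these copies is uncertain.

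HSPA6, an HSP70 that most unstressed cells hardly express (chr1:161524540-161526894), had 0, 0 and 24 counts in the EV libraries. It had 15, 39 and 92 counts in EHF, 23414, 11237 and 13189 in CDX1, and 29, 12 and 7 in EHF+CDX1 libraries, or 284 to 513 CPM in CDX1 and 0.23 to 0.51 in EHF+CDX1. Only the CDX1 libraries held more than trace reads of it. The fitted log2 fold change over EV was 10.68 ± 0.56 and rests on EV replicate 3, without which it was 16.89. Against EV replicates 1 and 2, both at 0, the CDX1 mean was at least 2793-fold higher, taking 3 counts per library as the floor. HSPA6 shares 15.3% of its 150-base windows with HSPA7, a neighbouring pseudogene, which was itself at 12.2 CPM in CDX1 and at most 0.055 CPM on average elsewhere.

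CRYAB, the small heat shock protein alphaB-crystallin (chr11:111908564-111923740), had 0, 1 and 16 counts in EV, 2, 11 and 27 in EHF, 2281, 1150 and 1148 in CDX1 and 10, 12 and 2 in EHF+CDX1 libraries. It is the one member of the 54 that entered the test through the CDX1 libraries alone, since it stayed under 0.5 CPM in the other 9, so its difference was built into the filter. The fitted log2 fold change was 7.77 ± 0.49 over EV and 10.46 without EV replicate 3. The 2 other small heat shock proteins of the list had reads in every EV library. HSPB1 (HSP27, chr7:76302673-76304292) was at 740.6, 799.5 and 350.7 CPM in EV and at 9777, 7387 and 9386 in CDX1, against 845.7 to 908.7 in EHF and 705.2 to 779.4 in EHF+CDX1 libraries, a log2 fold change of 3.81 ± 0.27. HSPB8, the partner of BAG3 in chaperone-assisted autophagy (chr12:119178931-119194746), was at 1.86 to 2.75 CPM in EV and 109.7 to 157.7 in CDX1, a log2 fold change of 5.83 ± 0.20.

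The 3 J-domain proteins among the inducible genes were also highest in CDX1 cells. DNAJB1, the J-domain partner that the stress-induced HSP70s use most (chr19:14514769-14560391), was at 197.0, 201.0 and 180.2 CPM in EV, 225.0, 229.3 and 216.5 in EHF, 8360, 6077 and 7580 in CDX1, and 229.4, 222.2 and 219.1 in EHF+CDX1 libraries. The 3 CDX1 libraries did not approach the others, and the log2 fold change over EV was 5.25 ± 0.14, the smallest standard error among the inducible genes. DNAJA4 averaged 106 ± 29.3 CPM (SD, n = 3 here and below) in EV, 99.9 ± 3.29 in EHF, 1414 ± 228 in CDX1 and 92.8 ± 8.25 in EHF+CDX1 cells, a log2 fold change of 3.73 ± 0.19. DNAJB4 averaged 25.1 ± 5.63, 21.3 ± 0.97, 222 ± 26.5 and 17.6 ± 1.5 CPM in the same order, a log2 fold change of 3.15 ± 0.16.

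BAG3, HSPH1 and HSPA4L, which exchange nucleotide on HSP70, were higher by log2 fold changes of 3.71 to 3.85. BAG3 averaged 137 ± 28.9 CPM in EV, 253 ± 3.44 in EHF, 1978 ± 246 in CDX1 and 199.9 ± 3.54 in EHF+CDX1 cells, with a log2 fold change of 3.85 ± 0.16 in CDX1. HSPH1, the inducible HSP110, averaged 243 ± 64.1, 188 ± 3.84, 3501 ± 594 and 249 ± 23 CPM in the same order, a log2 fold change of 3.85 ± 0.21. HSPA4L averaged 28.0 ± 8.34, 41.6 ± 1.06, 365 ± 85.2 and 35.8 ± 2.22 CPM, a log2 fold change of 3.71 ± 0.23. HSPA4, the constitutive HSP110 gene, averaged 273 ± 86.7 CPM in EV and 486 ± 21.3 in CDX1 cells and was not called.

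HSP90AA1, the inducible cytosolic HSP90 (chr14:102080742-102139749), was at 2746, 2833 and 815.2 CPM in EV libraries and 3267 to 3337 in EHF. It reached 18456, 13150 and 15717 CPM in CDX1 and was at 2627 to 2711 in EHF+CDX1 libraries. EV replicate 3 lay at 0.29 times the mean of the other EV libraries for this gene, and the log2 fold change of CDX1 over EV was 2.89 ± 0.36 with it and 2.5 without it. CHORDC1, an HSP90 co-chaperone, averaged 64.2 ± 26.1 CPM in EV, 75.3 ± 3.93 in EHF, 374 ± 54.3 in CDX1 and 69.1 ± 4.65 in EHF+CDX1 cells, a log2 fold change of 2.55 ± 0.26. SERPINH1, the collagen chaperone HSP47, averaged 216 ± 56.7, 147 ± 4.58, 1843 ± 368 and 164 ± 6.48 CPM in the same order, a log2 fold change of 3.09 ± 0.19. UBB, a polyubiquitin gene that heat shock induces, averaged 915 ± 292, 927 ± 19.1, 5764 ± 861 and 797 ± 17.4 CPM, a log2 fold change of 2.66 ± 0.21.

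**Figure D2:**
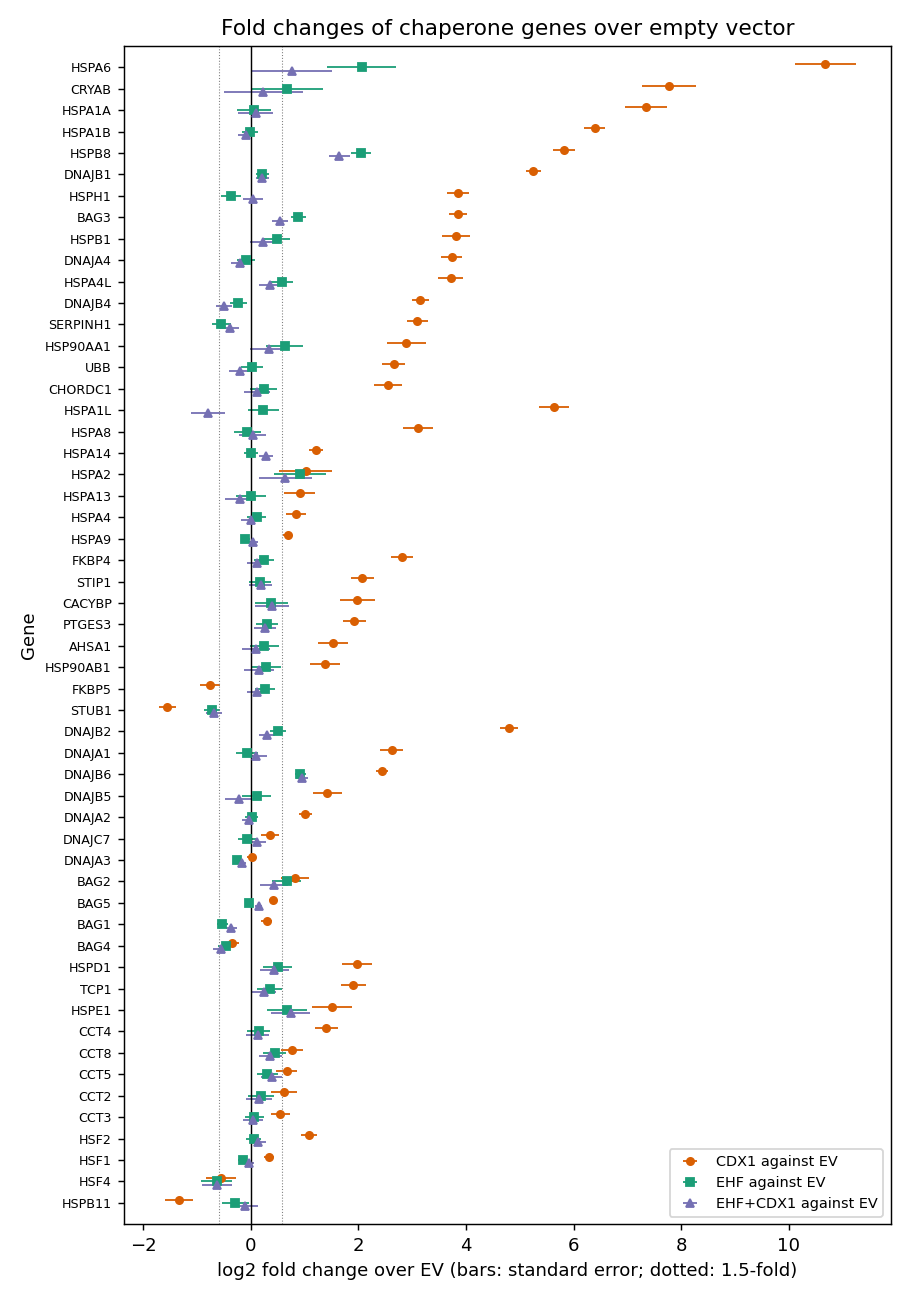
Log2 fold change over EV of the 54 genes (rows, in the order of the heat map) in CDX1 (circles), EHF (squares) and EHF+CDX1 cells (triangles), with bars of 1 SE and dotted lines at a 1.5-fold change. The circles of the 16 inducible genes run from 2.55 to 10.68, while the squares and triangles of most genes sit near 0. The 3 comparisons share the EV libraries.

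Among the constitutive genes the difference between CDX1 and EV cells was uneven. Of HSP90AB1 and the 7 HSP90 co-chaperones grouped with it, 6 of 8 were higher and 1 was lower, beside 21.3% and 23.3% of all genes tested. Their median log2 fold change was 1.72. FKBP4, an immunophilin of steroid receptor complexes, was at 373.3, 373.8 and 210.3 CPM in EV and 2582, 2035 and 2084 in CDX1 libraries, a log2 fold change of 2.81 ± 0.20. STIP1, which hands clients from HSP70 to HSP90, averaged 395 ± 138 CPM in EV and 1656 ± 155 in CDX1 cells, a log2 fold change of 2.07 ± 0.22. CACYBP, a co-chaperone that binds the ubiquitin ligase SIAH1, averaged 80.05 ± 40.5 CPM in EV and 315 ± 36.9 in CDX1 cells, and PTGES3, the p23 protein that stabilises closed HSP90, averaged 319 ± 114 and 1207 ± 40.4. With AHSA1, the activator of the HSP90 ATPase, and HSP90AB1 these genes were higher by log2 fold changes of 1.38 to 1.98, and of the 4 HSP90AB1, the constitutive HSP90, changed least although it carries the 3-unit element printed above. The calls of HSP90AB1 and AHSA1 were lost with voom and on log2 RPKM. In these settings HSP90AB1, CDX1 against EV, was at 0.54 and 0.60, and its call was also lost with library totals alone and with only the EV and CDX1 libraries in the fit.

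STUB1, the ubiquitin ligase CHIP that marks HSP70 and HSP90 clients for degradation (chr16:680410-682801), went the other way. It was at 64.6, 79.1 and 47.0 CPM in EV, 35.9, 38.8 and 40.4 in EHF, 20.2, 21.8 and 23.1 in CDX1, and 39.2, 39.4 and 39.5 in EHF+CDX1 libraries. The CDX1 libraries lay below all 9 others, and the fitted change from EV was -1.55 ± 0.15 on the log2 scale. FKBP5, the immunophilin that glucocorticoids induce, was likewise below all other libraries at 30.0 to 34.6 CPM in CDX1 against 35.0 to 68.2 elsewhere, but was not called, at -0.76 ± 0.19, and was called lower without EV replicate 3, at -1.01. HSPB11 averaged 19.1 ± 8.09 CPM in EV, 15.5 ± 0.50 in EHF, 7.53 ± 0.40 in CDX1 and 17.4 ± 0.81 in EHF+CDX1 cells, and its log2 fold change over EV was -1.33 ± 0.26, a call lost with voom and on log2 RPKM.

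Of the 7 constitutive HSP70 genes 3 were higher in CDX1 cells than in EV cells, beside 21.3% of all genes tested. HSPA8, the cognate HSC70 (chr11:123057489-123062462), was at 1916, 1896 and 879.5 CPM in EV, 1478, 1533 and 1460 in EHF, 15923, 10606 and 13903 in CDX1, and 1724, 1675 and 1422 in EHF+CDX1 libraries. Its log2 fold change over EV of 3.11 ± 0.27 lay inside the range of the inducible genes. HSPA1L, the testis-enriched HSP70 that lies head to head with HSPA1A (chr6:31809619-31815283), was at 0.66 to 1.43 CPM in EV and 49.0 to 71.5 in CDX1 libraries, a log2 fold change of 5.64 ± 0.28. HSPA14, a ribosome-associated HSP70, averaged 43.0 ± 8.26 CPM in EV and 99.6 ± 7.49 in CDX1 cells and was higher by 1.21 ± 0.13. HSPA2, HSPA4, HSPA9 and HSPA13 were not called, and HSPA13 averaged 42.2 ± 24.7 CPM in EV and 79.7 ± 6.75 in CDX1 cells.

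**Figure D3:**
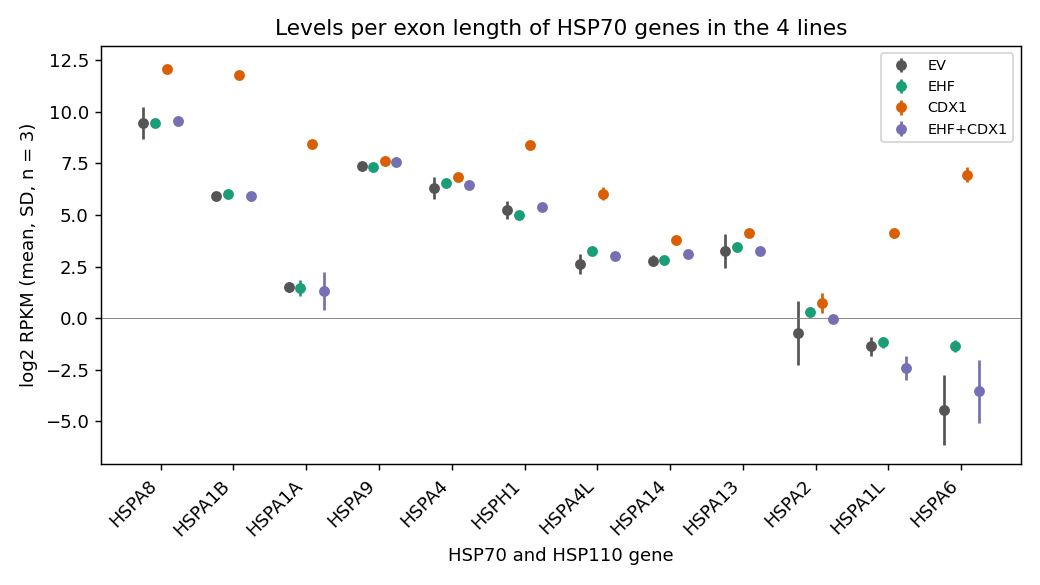
Authors' log2 RPKM (reads per kilobase of exon, scaled to the mapped reads and quantile-normalised) of 12 HSP70 and HSP110 genes in the 4 lines, as mean and SD of 3 libraries. HSPA8, HSPA1B, HSPA1A, HSPH1, HSPA4L, HSPA1L and HSPA6 sit above the other lines in CDX1 cells by wide margins, whereas HSPA9 and HSPA4 differ little between lines on this scale. In CPM each CDX1 library lay above every other library for HSPA9 and HSPA4 too, as for 27.6% of all genes tested.

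Per exon length, on the authors' log2 RPKM scale, HSPA8 was the most abundant HSP70 in EV cells at a level of 9.45 ± 0.78, followed by HSPA9 at 7.36 ± 0.10, HSPA4 at 6.32 ± 0.53 and HSPA1B at 5.93 ± 0.09, with HSPA4 and HSPA1B within their spread. In CDX1 cells HSPA8 was at 12.07 ± 0.21 and HSPA1B at 11.79 ± 0.12, which lay within their spread of each other. HSPA1A at 8.46 ± 0.15 and HSPH1 at 8.39 ± 0.21 came next and did not differ beyond their spread, followed by HSPA9 at 7.62 ± 0.08. HSPA6 rose from the bottom of the order, at a level of -4.46 ± 1.71 in EV, to 6.96 ± 0.36 in CDX1, level with HSPA4 at 6.83 ± 0.01. In EHF+CDX1 cells HSPA8 at 9.55 ± 0.12 and HSPA9 at 7.59 ± 0.02 again led the order, and HSPA1B was at 5.90 ± 0.24. Only uniquely mapped reads were kept, and 70.1% of the transcript windows of HSPA1B occur in other genes. The share was 69.6% for HSPA1A and 15.3% for HSPA6, while HSPA8, HSPA9, HSPA4 and HSPH1 shared none. The levels of HSPA1B, HSPA1A and HSPA6 may thus be understated, so their places in these orders are uncertain.

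Of the 7 other J-domain genes 5 were higher in CDX1 cells than in EV cells, beside 21.3% of all genes tested. DNAJB2, which guides ubiquitylated clients to the proteasome (chr2:219279366-219286895), was at 22.8, 25.1 and 34.6 CPM in EV, 39.0 to 39.3 in EHF, 880.5, 721.3 and 696.6 in CDX1, and 32.8 to 36.3 in EHF+CDX1 libraries. Its log2 fold change of 4.79 ± 0.17 exceeded those of most inducible genes although it was listed as constitutive. DNAJA1, the main cytosolic partner of HSC70, averaged 199 ± 65.9 CPM in EV and 1217 ± 159 in CDX1 cells, a log2 fold change of 2.61 ± 0.21. DNAJB6, a suppressor of polyglutamine aggregation, was at 23.2 to 30.3 CPM in EV, 50.9 to 51.8 in EHF, 135.0 to 164.8 in CDX1 and 51.8 to 52.5 in EHF+CDX1 libraries, a log2 fold change of 2.44 ± 0.11 in CDX1 over EV. DNAJB5 averaged 6.28 ± 2.56 CPM in EV, 16.5 ± 1.73 in CDX1 and 5.38 ± 1.08 in EHF+CDX1 cells. DNAJB5 and DNAJA2 were higher in CDX1 over EV by 1.42 ± 0.27 and 1.01 ± 0.12, the call of DNAJA2 being lost with voom, on log2 RPKM and with library totals alone, and DNAJA3 and DNAJC7 were not called.

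The chaperonins were divided in CDX1 against EV, where 21.3% of all genes tested were higher and 23.3% were lower. HSPD1 (HSP60) and HSPE1 (HSP10), which share a bidirectional promoter and form the mitochondrial chaperonin, were both higher, with log2 fold changes of 1.98 ± 0.28 and 1.51 ± 0.37. HSPD1 was at 774.0, 777.0 and 297.9 CPM in EV and 2651, 2147 and 2473 in CDX1 libraries, and HSPE1, which shares 10.8% of its 150-base windows with the readthrough gene HSPE1-MOB4, at 20.0, 22.0 and 5.16, and 46.9, 42.2 and 43.0. In both genes EV replicate 3 was the low library. Among the cytosolic TRiC subunits, TCP1 and CCT4 were higher, by 1.90 ± 0.23 and 1.40 ± 0.22, while CCT2, CCT3, CCT5 and CCT8, which belong to the same ring, were not called. The call of CCT4 was lost with voom and on log2 RPKM, and that of HSPE1 with library totals alone and with only the EV and CDX1 libraries in the fit. CCT4 averaged 324 ± 119 CPM in EV and 857 ± 65.0 in CDX1 cells. TCP1 was at 410.5, 404.5 and 186.9 CPM in EV and at 1401, 1173 and 1173 in CDX1 libraries. For all 8 chaperonin genes each CDX1 library lay above each of the 9 others, beside 27.6% of all genes tested. The 4 that were not called had log2 fold changes of 0.55 to 0.77. None of the 4 BAG genes outside the inducible group (BAG1, BAG2, BAG4 and BAG5) was called in any of the 4 comparisons. In CDX1 against EV 8778 of the 15853 genes tested were not called either.

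Of the 3 heat shock factors only HSF2 was called in CDX1 against EV, where 21.3% of all genes tested were higher and 23.3% lower. HSF1, the factor that drives the response in most cells (chr8:144291604-144314720), was at 181.6, 200.5 and 195.3 CPM in EV, 167.5, 181.0 and 170.4 in EHF, 219.3, 256.1 and 252.4 in CDX1, and 197.8, 187.5 and 177.9 in EHF+CDX1 libraries. Its log2 fold change in CDX1 over EV of 0.33 ± 0.09 was not called, and it was -0.01 when libraries were scaled by their totals alone and -0.03 on the authors' log2 RPKM scale, so its direction depends on the scaling. HSF2, which can pair with HSF1, was at 14.6 to 21.1 CPM in EV and 35.3 to 44.5 in CDX1 libraries and was called higher, at 1.08 ± 0.14, a call lost with library totals alone. HSF4, a factor of the lens, was at 13.3, 16.4 and 36.0 CPM in EV and 14 to 15.9 in CDX1 libraries and was not called. HSF1 is activated on the protein, which RNA does not measure.

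In EHF+CDX1 cells 15 of the 16 inducible genes were not called different from EV cells, and HSPB8 was higher. Of the 15853 genes tested, 14199 were not called in that comparison either. In EHF+CDX1 against CDX1, where the EV libraries enter only through the shared estimate of the spread, 16 of 16 inducible genes were lower, with a median log2 fold change of -3.73 and a range of -9.92 to -2.44. This comparison uses the same CDX1 libraries as CDX1 against EV, with the sign turned, so it is not separate support for their high levels. CRYAB, tested only through its CDX1 reads, is among the 16. Of the constitutive genes 18 were lower and 1 was higher, with a median of -0.99. Over the 54 members 35 were lower and 2 were higher, against 18.7% of all genes tested lower and 22.3% higher. HSPA6 changed by -9.92 ± 0.53, CRYAB by -7.54 ± 0.48, HSPA1A by -7.26 ± 0.39, HSPA1B by -6.48 ± 0.19 and DNAJB1 by -5.04 ± 0.14. In the other groups HSPA1L changed by -6.43 ± 0.30, DNAJB2 by -4.49 ± 0.17, HSPA8 by -3.07 ± 0.27, FKBP4 by -2.69 ± 0.20, TCP1 by -1.66 ± 0.23 and HSF2 by -0.94 ± 0.14. In the test of the interaction, EHF+CDX1 minus CDX1 compared with EHF minus EV, 34 members were lower and 2 higher, beside 18.0% and 20.2% of all genes. It uses the same CDX1 libraries again, and the lines also differ in CDX1 level, G418 selection and isolation of clones, which cannot be told apart from EHF. The genes called higher in EHF+CDX1 against CDX1 were HSPB11, at 1.21 ± 0.25, and STUB1, at 0.86 ± 0.15, and the call of STUB1 was lost when any of 5 single libraries was left out. That of HSPA13, counted among the lower genes, was lost when any of the 6 libraries of these lines was left out. The calls of TCP1, HSF2, HSPB11 and STUB1 in this comparison were lost with voom and on log2 RPKM, those of HSF2, HSPB11 and STUB1 also with DESeq2, and that of HSF2 with library totals alone.

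Against EV cells, the EHF+CDX1 line showed 2 members higher and 0 lower, beside 7.30% of all genes higher and 3.13% lower. EHF alone gave the same counts, 2 higher and 0 lower, beside 5.68% and 2.65%. Most genes tested were not called in either comparison, so these small counts are not read as a trait of the members. In each comparison the 2 genes were HSPB8 and DNAJB6, and both comparisons use the same EV libraries. HSPB8 was at 2.71, 2.75 and 1.86 CPM in EV, 8.40, 9.75 and 11 in EHF and 8.02, 7.25 and 6.91 in EHF+CDX1 libraries, without overlap, and its log2 fold change over EV was 2.05 ± 0.19 in EHF and 1.65 ± 0.19 in EHF+CDX1. DNAJB6, with the levels given above, was higher by 0.92 ± 0.11 in EHF and by 0.95 ± 0.11 in EHF+CDX1 cells. In the test against no change 5 members were higher and 4 lower in EHF, and 3 higher and 4 lower in EHF+CDX1 cells, beside 14.9% and 15.1%, and 16.9% and 16.7%, of all genes. At an unadjusted p under 0.05 in the 1.5-fold test of edgeR, 4 members were higher in EHF and 2 in EHF+CDX1 cells, and 0 were lower in either.

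**Figure D4:**
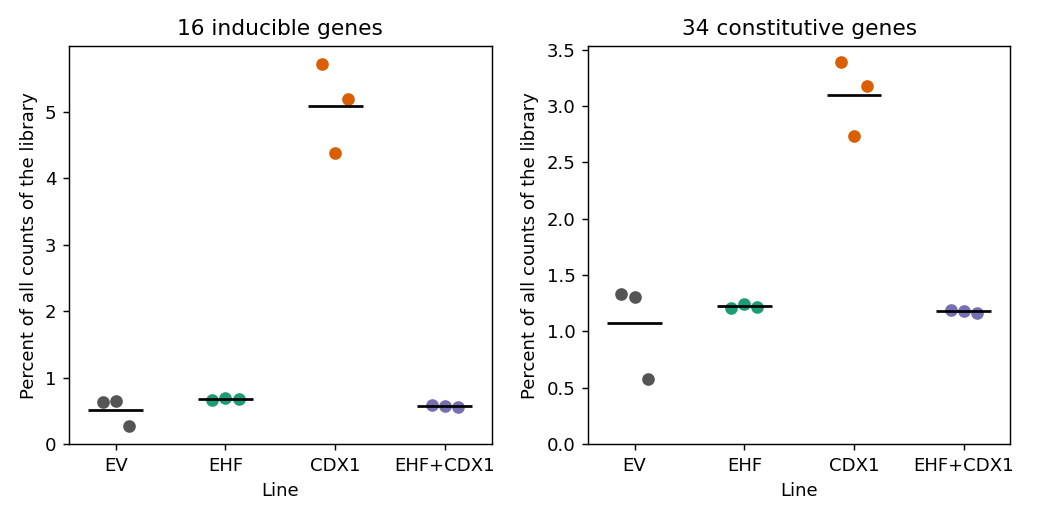
Percent of all counts of a library that fell on the 16 inducible genes (left) and the 34 constitutive genes (right), 1 point per library and a bar at the mean of each line. All CDX1 libraries lie above the other 9 in both panels, and 1 EV library, replicate 3, lies below the other EV libraries in both.

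The 54 genes took 1.62 ± 0.64% of all counts in EV, 1.93 ± 0.03% in EHF, 8.21 ± 1.01% in CDX1 and 1.78 ± 0.03% in EHF+CDX1 libraries. The 16 inducible genes alone took 0.52 ± 0.21%, 0.68 ± 0.01%, 5.09 ± 0.68% and 0.58 ± 0.01% in the same order, so in CDX1 cells they held more counts than the 34 constitutive genes, at 3.10 ± 0.34%, which held the larger part in the other 3 lines. In bulk RNA a change in the share of cells and a change in transcript per cell cannot be told apart, so these values do not say whether all CDX1 cells carried the high levels.

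The inducible median exceeded the constitutive median by 2.72 on the log2 scale in CDX1 against EV, by 0.05 in EHF against EV and by 0.04 in EHF+CDX1 against EV. Computed per library, with each gene centred on its EV mean, this difference was 2.69 ± 0.12 in CDX1, -0.0041 ± 0.24 in EV, 0.0042 ± 0.12 in EHF and -0.01 ± 0.10 in EHF+CDX1 libraries. It has no test, because the groups were drawn up with these results known.

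Within the CDX1 line the libraries kept an order. Of the 16 inducible genes, 15 were highest in replicate 1 and lowest in replicate 2, an order held by 22.2% of all genes tested, and the exception was UBB, lowest in replicate 3. Over the 54 members, 47 were highest in replicate 1, compared with 39.2% of all genes. All 3 CDX1 libraries were above all 9 others for 46 members and below them for 3, beside 27.6% and 25.8% of all genes.

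EV replicate 3 stood apart. It was the lowest EV library for 43 of the 54 members, beside 41.4% of all genes, and for 31 of the 34 constitutive ones. Its difference was not confined to the list. The 10 most abundant genes took 18.3% of its counts, against 8.19% and 8.39% in EV replicates 1 and 2. CDH1 was higher there, at 374 CPM against 134 and 129, and KRT8 was lower, at 1619 against 2406 and 2518. The median ratio of replicate 3 to the mean of the other EV libraries was 0.57 over the 54 members, 0.53 over the constitutive, 0.68 over the inducible and 1.05 over all genes tested. Without it, 36 members were higher and 3 lower in CDX1 against EV, 3 higher and 1 lower in EHF against EV, and 2 higher and 1 lower in EHF+CDX1 against EV. The added calls were HSPA6, higher in EHF, STUB1, lower in both EHF and EHF+CDX1 at -0.90 and -0.87, HSPA13, higher in CDX1, and FKBP5, lower in CDX1, and the median of the inducible genes in CDX1 was 3.66. In EHF+CDX1 against CDX1, 3 members were then higher and 37 lower, with FKBP5, higher, and HSPA4 and HSPE1, lower, added. For the interaction 3 were higher and 38 lower, with FKBP5, higher, and HSPA4, HSPA13, BAG2 and HSPE1, lower, added. The share of all genes called rose as well, to 26.2% higher and 24.9% lower in CDX1 against EV and to 25.8% and 22.3% in EHF+CDX1 against CDX1.

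Levels of some markers of other cell types moved with CDX1 cells. Of 4 fibroblast markers 1, COL1A1, a client of the chaperone SERPINH1, was highest in CDX1 cells, at 186 ± 29.2 CPM against 46.9 ± 23.1 in EV. COL3A1 and PDGFRB were lower in CDX1 than in EV cells, at 0.094 and 0.60 CPM against 0.99 and 1.26. The summed list, nearly all of it COL1A1, ran from 168 to 220 CPM in CDX1 and from 34.5 to 76.7 in the other libraries. DCN, a defining fibroblast marker, stayed under 5 counts in every library. Of 3 leukocyte markers CD68 and PTPRC were highest in CDX1 cells, with a sum of 76.9 to 88.2 CPM there and 2.18 to 26.6 elsewhere, nearly all of it CD68, a lysosomal protein, while PTPRC had at most 6 counts in a library. The 3 endothelial markers summed to 0.26 to 1.88 CPM across the libraries. The part of these markers in the chaperone values was not tested.

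Of 47 further genes of the network that are not among the 54, 41 were expressed enough to test. In CDX1 against EV 14 were higher and 3 lower, beside 21.3% and 23.3% of all genes, in EHF+CDX1 against CDX1 1 was higher and 14 were lower, beside 22.3% and 18.7%, and 0 were called in EHF or in EHF+CDX1 against EV. There edgeR's 1.5-fold test gave 2 higher and 0 lower in each at an unadjusted p under 0.05, and the test against no change 2 higher and 1 lower in EHF and 6 higher and 4 lower in EHF+CDX1 after adjustment, beside 14.9% and 15.1%, and 16.9% and 16.7%, of all genes. IER5, a target and regulator of HSF1, averaged 67.1 CPM in EV, 83.0 in EHF, 763 in CDX1 and 83.5 in EHF+CDX1 cells, and PFDN2, a prefoldin subunit that delivers actin and tubulin to TRiC, averaged 57.2, 96.7, 415 and 94.5 CPM in the same order. Among the 3 lower genes were PPP5C, an HSP90-bound phosphatase, at 110 CPM in EV and 53.4 in CDX1, and HSPA12A at 43.2 and 25, while CCT6B averaged under 1 CPM in every line.

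The elements printed at the start were searched for in the promoters of all genes. A RefSeq window of 300 bases, from 250 before to 50 after a start site, was at hand for 47 of the 54 members and for 27305 genes in all. A pair of units, GAANNTTC or TTCNNGAA on either strand, was present in 24 of the 47 members (51.1%) and in 16.2% of all genes. The longer GAANNTTCNNGAA or TTCNNGAANNTTC, which contains the pair, was present in 9 of 47 (19.1%) and in 0.61% of all genes. By group, 12 of 15 inducible genes with a window and 12 of 30 constitutive ones held the pair. Heat shock elements are a known feature of inducible genes, so this share describes the list. The letters TTTATNG, a form of the caudal factor motif, were present in 2 of 47 members (4.26%) and in 11.9% of all genes.

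Members with more units did not have larger changes throughout. The median log2 fold change in CDX1 over EV was 2.61 (range 1.38 to 10.68) in the 9 members with the 3-unit form, 3.71 (0.61 to 7.34) in the 15 with a pair only and 1.01 (-0.76 to 4.79) in the 23 with neither. Of these members 4, 8 and 3 were inducible, so the classes also differ in their share of inducible genes. HSPA6 and HSP90AB1 both carry the 3-unit form and lie at the ends of that range. Of the members with neither, DNAJB2, BAG3, HSPH1 and UBB were among those with large changes, and no match says only that these letters are not in the window searched.

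**Figure D5:**
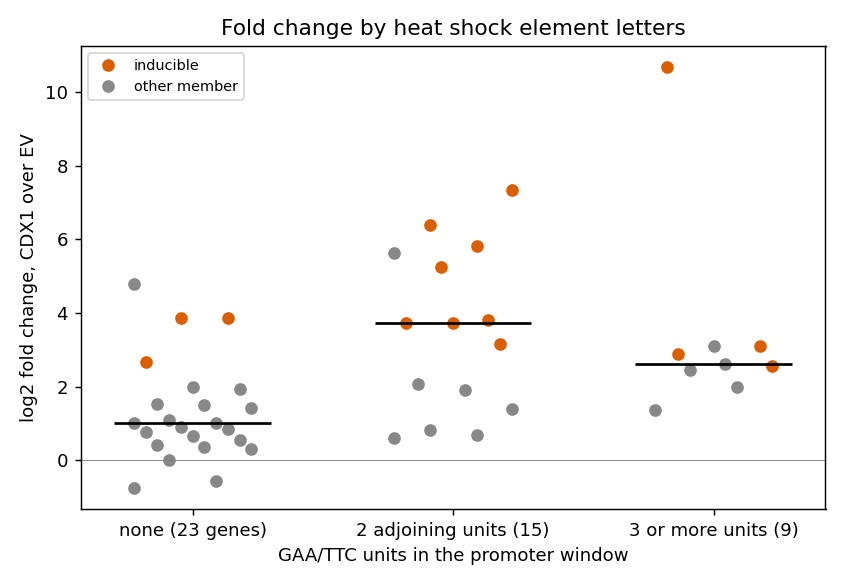
Log2 fold change in CDX1 over EV of the 47 members with a promoter window, by the GAA/TTC units found in it, with inducible genes in orange, other members in grey and a bar at the median of each class. The medians are 1.01, 3.71 and 2.61 from left to right, and the classes overlap widely.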

How the data were processed

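Counts per gene were deposited by the authors, who aligned paired 150-base reads to GRCh38/hg38 with Subread (version 2.0.0 per the submitters' notes), kept uniquely mapped reads and counted RefSeq 38.2 exons with featureCounts. The strand setting is not given in the sources used here, so reads of genes overlapping on opposite strands cannot be told apart. The authors also deposited log2 RPKM values, quantile-normalised with limma voom, which were used for levels between genes.

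From the counts, genes at 0.5 CPM or more in at least 3 libraries were kept (15853 of 28395, leaving out 0.0585% of counts; 550 genes without a symbol stayed in the table). All 12 libraries were fitted in edgeR 4.0.16 (R 4.3.3) with TMM, 4 lines as groups, and tested with glmTreat against a 1.5-fold change, with Benjamini-Hochberg adjustment over all genes tested and a threshold of 0.05. Standard errors are the log2 fold change over the root of the quasi-likelihood F. All 54 members passed the filter. CPM are of TMM-scaled totals. Gene positions are from RefSeq GRCh38.p14. The fit was tested on simulated data.

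The members, their groups and the lists were chosen with earlier results of these data known. Values are given for each inducible gene and heat shock factor, for the up to 3 largest called members per comparison and group, and for up to 3 other network genes per comparison. 1 gene this rule would name is not reported here. Low-count members are named with their counts. Beyond this rule, FKBP5 and the remaining members were named after their values were seen. Alternatives were RLE factors, no filter, DESeq2 1.42.0, limma 3.58.1 voom and log2 RPKM fits, a test against no change, only the libraries compared, a replicate block, each library left out, and, added after seeing the data, library totals alone.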

Additional observations from a re-analysis of the deposited data

Results flagged for a closer look

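The difference between CDX1 and EHF+CDX1 cells was not the same as that between EV and EHF cells. In a test of the interaction, EHF+CDX1 minus CDX1 compared with EHF minus EV, 34 members were lower and 2 higher, beside 18.0% and 20.2% of all genes tested. The test rests on the same CDX1 libraries as the comparisons above and is not independent of them. The 34 included all 16 inducible genes, among them CRYAB, which was tested only through its CDX1 reads. The log2 interaction was -11.98 for HSPA6, -8.22 for CRYAB and -7.31 for HSPA1A, and it was -18.23 for HSPA6 and -10.94 for CRYAB without EV replicate 3. It was 1.59 for STUB1 and 1.5 for HSPB11, the 2 higher genes. The arms being compared also differed in CDX1 itself, at 525 CPM in CDX1 and 5419 in EHF+CDX1 cells, in EHF before the plasmid, at 299 CPM in EV and 12.3 in CDX1 cells, and in G418 selection and isolation of clones, which are stated for each line but CDX1. The part of each in the interaction cannot be told apart. Groups of 3 libraries are too small for a test of single outlying libraries.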

How the results depend on the processing

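All 16 inducible genes kept their call in each of 15 other fits, both in CDX1 against EV and in EHF+CDX1 against CDX1. For CRYAB the call was built into the low-count filter. The test against no change, counted among the 15, used the main fit with a less strict test, so it could not lose a call. Of all members called in these comparisons, 30 of 37 and 24 of 37 kept it throughout, and the others were constitutive genes, HSF2 and HSPB11. In CDX1 against EV the 7 lost in at least 1 fit were HSP90AB1, AHSA1, DNAJA2, CCT4, HSPE1, HSF2 and HSPB11, and in EHF+CDX1 against CDX1 the 13 were HSPA13, HSPA14, HSP90AB1, AHSA1, PTGES3, CACYBP, STUB1, DNAJA2, CCT4, TCP1, HSPD1, HSF2 and HSPB11. In CDX1 against EV, counts of lower members were 1 with voom, 1 on log2 RPKM and 4 in the test against no change, instead of 2. In EHF+CDX1 against CDX1, counts of higher members were 0 with DESeq2, voom and log2 RPKM and 1 to 2 with a library of either line left out, instead of 2 (3 without EV replicate 3), and for the interaction they were 1 with DESeq2, voom and log2 RPKM. In EHF against EV, higher members were 1 with DESeq2 and with only the libraries compared, and 5 in the test against no change, instead of 2, where DNAJB6 was the call lost. Lower members there and in EHF+CDX1 against EV were 4 in the test against no change, and 0 to 1 with a library left out, the 1 being STUB1 without EV replicate 3. The inducible excess in CDX1 of 2.72 was 2.37 with voom and 2.41 on log2 RPKM. The value for HSF1, CDX1 against EV, turned from 0.33 to -0.029 with voom, -0.031 on log2 RPKM and -0.0076 with library totals. Library totals alone moved the median of all genes by -0.34 in CDX1 against EV, where 31 members were higher and 3 lower and all genes split 2273 higher to 5115 lower instead of 3384 to 3691, and by 0.36 in EHF+CDX1 against CDX1, where 3 members were higher and 29 lower and all genes split 5074 to 1765 instead of 3529 to 2970. The cause of these shifts was not tested.

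Replicate numbers were shared by all lines, but the 18 same-number pairs correlated at only -0.07 to 0.08, so they were not taken to pair the samples. With the number as a block, counts were 35 higher and 2 lower in CDX1 against EV, 2 higher and 35 lower in EHF+CDX1 against CDX1, and 2 higher and 0 lower in both EHF and EHF+CDX1 against EV, and 34 lower and 2 higher for the interaction, the same as without it.

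Depth limits HSPA6 and CRYAB in the lines other than CDX1, where they rest on 0 to 92 counts, and the depth of 3 counts was 0.037 to 0.21 CPM. The division of reads between HSPA1A and HSPA1B cannot be settled from counts per gene.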
